A study of Mus musculus with 8 samples.

Results

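In 8 kidney libraries of polyadenylated RNA from mice, 57 of 13376 tested genes (0.426%) divided the libraries numbered 1 and 2 from those numbered 3 and 4, here called the replicate sets, in the same direction in both treatments. Of these, 23 were higher in replicates 3 and 4 and 34 were lower. The genes were selected on their FPKM values in these libraries, and the split itself was proposed from the same values, through the clock genes Arntl, Npas2, Dbp, Ciart and Tef. A gene counted as dividing the sets where, within vehicle and within BPA separately, both libraries of one set lay above both of the other in the same direction. The difference of the set means also had to reach 1 on the log2(FPKM + 1) scale in each treatment. FPKM is a read number divided by gene length and library size, and only genes averaging 0.5 FPKM or more were tested. Because this contrast chose the genes, their differences between sets are given as a description, with no p-value.

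The study compared kidneys after BPA (bisphenol A), the building block of polycarbonate and a weak ligand of estrogen receptors, with kidneys after vehicle. Each treatment had 4 libraries, and the library names give the mice of both as ICR, which are outbred. The sources used here state no dose, route, duration or age. The labels say neither what a replicate number stands for nor whether each library is a different animal, and the tests therefore rest on a spread between libraries that may be technical. Summed markers of the first segments of the proximal tubule, the main epithelium of kidney cortex, were at 1935 to 2740 FPKM in the libraries, and 3 of 6 adrenal cortex markers were at 0 in all.

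The mammalian circadian clock is a transcriptional loop that runs in nearly every cell, including those of the nephron. Its positive arm is the activator BMAL1, encoded by Arntl, paired with CLOCK or NPAS2. These pairs bind E-box motifs near their target genes, among them the Per, Cry, Nr1d and Ciart genes of the negative arm, whose proteins feed back on the loop. Dbp, Tef and Hlf are further E-box targets, and their proteins activate genes through a separate motif, the D-box, which NFIL3 represses. In many tissues Arntl and Npas2 peak at a phase opposite to that of Dbp, Per3 and Ciart.

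Promoter windows of 250 bases before to 50 after the start site, from RefSeq on GRCm38.p6, were matched for 8983 of the 13376 tested genes. The higher group had windows for 11 of its 23 genes, and the lower group for 16 of its 34. The letters of 7 motifs were searched on both strands. The 4 motifs named for the clock were the E-box (CACGTG), its variant the E-prime box (CACGTT), the D-box (TTANGTAA) and the ROR element (TAGGTCA). The E-box and the E-prime box differ in their last base, so no site counts as both. The following 100-base stretches lie upstream of the start site, written 5′ to 3′ on the strand of the gene, and capitals mark these motifs. They are shown because their genes span the pattern, with Ciart, Per1 and Per3 higher in replicates 3 and 4, Slc16a1 lower, and Nr1d1 a clock gene that did not divide the sets.
Ciart, chr3:95882259-95882358, minus strand: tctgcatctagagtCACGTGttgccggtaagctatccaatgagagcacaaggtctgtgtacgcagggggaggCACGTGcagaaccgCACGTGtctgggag
Per1, chr11:69098739-69098838, plus strand: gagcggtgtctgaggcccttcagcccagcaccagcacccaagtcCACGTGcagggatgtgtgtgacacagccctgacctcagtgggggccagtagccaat
Per3, chr4:151044786-151044885, minus strand: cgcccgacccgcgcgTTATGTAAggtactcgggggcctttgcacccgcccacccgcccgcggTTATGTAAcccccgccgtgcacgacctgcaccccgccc
Nr1d1, chr11:98775378-98775477, minus strand: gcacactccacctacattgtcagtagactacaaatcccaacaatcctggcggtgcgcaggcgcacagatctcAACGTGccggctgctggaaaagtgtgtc
Slc16a1, chr3:104638424-104638523, plus strand: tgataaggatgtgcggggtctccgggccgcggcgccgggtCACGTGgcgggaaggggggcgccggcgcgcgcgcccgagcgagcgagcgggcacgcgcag
In the GENCODE M21 annotation no exon overlaps these stretches. The Per1 stretch lies inside an intron of the longest Per1 transcript, that of Per3 inside the gene Camta1 and that of Ciart inside C920021L13Rik, while the stretches of Nr1d1 and Slc16a1 lie outside annotated genes.

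Ciart held 3 E-boxes, starting 116, 58 and 44 bases before the start site. Per1 held 1 E-box, 166 bases before it. Tef, whose stretch is not printed, held 1 at 127 bases. These 3 genes made up 27.3% of the 11 windows of the higher group, against 10.6% of all 8983 windows and 1 of 16 (6.25%) in the lower group, that of Slc16a1. Ciart and Tef helped to choose the split and Per1 is a clock gene too, so this share is a description only. Per3 held 2 D-boxes, 205 and 158 bases before its start site, the only window with one among the 27, against 1.40% of all windows. The E-prime box was found in Tmem86a of the higher group and in Slc10a2 of the lower group, against 5.34% of all windows. It was also in the clock genes Nr1d1, Cry1 and Cry2, which did not meet the rule. Cry1 held an E-box as well, 60 bases before its start site. The ROR element was in none of the 27 windows, against 1.90% of all, and the window of Nfil3, which did not divide the sets, held 1. The other 3 motifs gave 1 match among the 27 windows, a glucocorticoid element (ACANNNTGT) in Car14, against 3.94% of all windows, and none for the cAMP element (TGACGTCA) or the heat shock element (GAANNTTC), which 3.18% and 5.60% of all windows held. Such matches describe letters in a window and were not tested as binding sites.

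The 23 higher genes were 0.172% and the 34 lower genes 0.254% of the genes tested. Without the minimum difference, 964 genes (7.21%) lay apart and higher in replicates 3 and 4 in both treatments, and 860 (6.43%) lay apart and lower. For 1299 genes (9.71%) the sets lay apart in each treatment but in opposite directions, and 9 of these (0.0673%) reached a difference of 1 in each. Just inside the minimum, by the smaller of the differences in the 2 treatments, were Upp2 (1.01), Tmem86a (1.01) and Car14 (1.02) in the higher group, and just outside it 4930502E18Rik (0.98), Utp20 (0.94) and Coq10b (0.92). In the lower group Arhgef19 (-1.001), Emcn (-1.01) and Avpr1a (-1.01) were just inside, and Smim3 (-0.97), Wsb1 (-0.95) and Adora2b (-0.94) just outside. Across both treatments, all 4 libraries of one set lay beyond all 4 of the other in 19 of the 23 higher genes, as in 562 of all genes (4.2%), and in 28 of the 34 lower genes, as in 489 (3.66%). The difference was larger in size in vehicle for 12 of the 23 higher genes and for 25 of the 34 lower genes. Over all 13376 genes tested it was larger in vehicle for 5942 and in BPA for 7434.

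**Figure D1:**
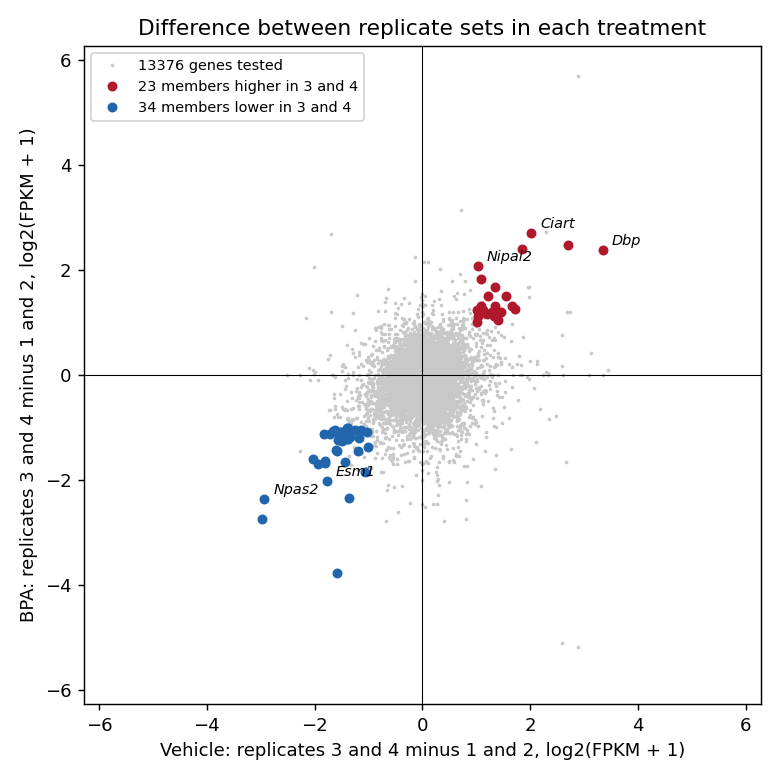
Difference between replicates 3 and 4 and replicates 1 and 2 on the log2(FPKM + 1) scale, in vehicle (x axis) and in BPA (y axis), for each of 13376 genes (grey), with the 23 higher (red) and 34 lower (blue) genes marked. The marked genes lie beyond 1 in both treatments, as do some grey genes whose replicate sets overlapped within a treatment, and Dbp reached 3.35 in vehicle and 2.38 in BPA.

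Libraries held 15944081 to 17351540 reads, recovered from the deposited values, and the ranges of the sets overlapped (16178630 to 17351540 in replicates 1 and 2, 15944081 to 17226655 in replicates 3 and 4). The second principal component, with 20.8% of the variance, separated the sets, at -20.7 to -12.1 in replicates 1 and 2 and 7.75 to 35.9 in replicates 3 and 4. The first component, with 33.2%, set BPA replicate 4 apart at 57.5, where 17174 genes were above 0, fewer than in any other library. Vehicle replicate 4 held skeletal muscle markers at a summed 306.5 FPKM, against 0.560 to 1.64 FPKM elsewhere, and the highest summed level of fat markers (371.7 FPKM). With both replicates 4 left out, 17 of the 23 higher and 23 of the 34 lower genes still met the rule. All 57 kept their direction, which the rule fixes in advance when libraries are left out.

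In the positive arm of the clock, Arntl and Npas2 divided the sets, while Clock, Rora and Arntl2 did not. Arntl (chromosome 7, 113207465 to 113314126, GRCm38) was at 4.27 and 3.76 FPKM in vehicle replicates 1 and 2 and at 0.550 and 0.337 FPKM in vehicle replicates 3 and 4. In BPA it was at 3.17 and 2.22 FPKM in replicates 1 and 2 and at 0.106 and 0.185 FPKM in replicates 3 and 4. Every library of replicates 1 and 2 was thus above every library of replicates 3 and 4, and the fitted difference, with treatment as a covariate, was -1.74 on the log2(FPKM + 1) scale (SE 0.124). Npas2 (chromosome 1, 39193731 to 39363236), the paralog that can replace CLOCK, was at 11.1 and 6.19 FPKM in vehicle replicates 1 and 2 and at 0.229 and 0.204 FPKM in replicates 3 and 4. In BPA, Npas2 was at 6.38 and 4.36 FPKM in replicates 1 and 2 and at 0.192 and 0.253 FPKM in replicates 3 and 4. The sets did not overlap, and the fitted difference of -2.65 (SE 0.206) was wider than that of Arntl. Over the 4 libraries of each set, 2384 Npas2 reads stood against 69.

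Clock itself did not follow Arntl and Npas2 in BPA. It was at 4.98 and 5.21 FPKM in vehicle replicates 1 and 2 and at 3.14 and 2.84 FPKM in vehicle replicates 3 and 4, but at 5.04 and 4.36 FPKM against 3.97 and 5.55 FPKM in BPA. The sets overlapped there, and the difference was -0.61 in vehicle and 0.01 in BPA. The activator Rora had a fitted difference of 0.14 (SE 0.110), and Arntl2, a paralog of Arntl, one of 0.05 (SE 0.101). Rorb was below the filter on low values.

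Most of the negative arm was higher in replicates 3 and 4. Of 9 tested genes, 7 lay apart and higher in both treatments, and 5 of these (Per1, Per2, Per3, Ciart and Nr1d2) reached the minimum difference. The median difference of the 9 genes was 1.17, beside -0.00 over all genes tested (49.5% higher, 50.5% lower), and it was 1.08 in vehicle and 1.13 in BPA. Since Ciart helped to choose the split, this median is a description.

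Ciart (chromosome 3, 95878503 to 95882251), which encodes a repressor of CLOCK and BMAL1, was at 0.217 and 0.718 FPKM in vehicle replicates 1 and 2 and at 5.09 and 4.66 FPKM in vehicle replicates 3 and 4. In BPA, Ciart was at 0.204 and 0.498 FPKM in replicates 1 and 2 and at 7.88 and 7.57 FPKM in replicates 3 and 4. The lowest library of replicates 3 and 4 was above the highest of replicates 1 and 2 by several fold, and the fitted difference was 2.36 (SE 0.183). This is the gene with 3 E-boxes in the window printed above.

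The 3 Period genes, whose proteins hold CLOCK and BMAL1 in check together with the cryptochromes, were all higher in replicates 3 and 4. Per3 was at 0.438 and 1.15 FPKM in vehicle replicates 1 and 2 and at 3.51 and 3.43 FPKM in replicates 3 and 4, and in BPA at 0.468 and 1.196 FPKM against 4.001 and 2.998 FPKM. Per1 was at 1.46 and 2.08 FPKM in vehicle replicates 1 and 2 and at 4.67 and 5.72 FPKM in replicates 3 and 4, and in BPA at 1.10 and 2.05 FPKM against 4.07 and 5.46 FPKM. Neither gene overlapped between sets, and the fitted differences were 1.33 (SE 0.180) for Per3 and 1.17 (SE 0.158) for Per1. Per2 was at 4.07 and 2.53 FPKM in vehicle replicates 1 and 2 and at 8.17 and 7.76 FPKM in replicates 3 and 4. In BPA, Per2 was at 1.03 and 1.06 FPKM against 5.51 and 7.06 FPKM. Its difference was 1.08 in vehicle and 1.82 in BPA, and BPA replicates 1 and 2 were the lowest of the 8 libraries.

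Among the nuclear receptors that repress Arntl, Nr1d2 (REV-ERB beta) divided the sets and Nr1d1 (REV-ERB alpha) did not. Nr1d2 was at 6.18 and 14.5 FPKM in vehicle replicates 1 and 2 and at 25.1 and 25.6 FPKM in replicates 3 and 4, and in BPA at 14.0 and 16.1 FPKM against 37.3 and 31.2 FPKM, a fitted difference of 1.23 (SE 0.223). Nr1d1 was at 3.57 and 15.2 FPKM in vehicle replicates 1 and 2 and at 6.13 and 6.18 FPKM in replicates 3 and 4, and in BPA at 13.1 and 18.7 FPKM against 19.3 and 17.9 FPKM. Its sets overlapped in both treatments and the fitted difference was -0.02 (SE 0.360). Among the remaining repressors, Bhlhe40 and Cry2 lay apart in both treatments below the minimum, with differences of 0.63 (SE 0.130) and 0.48 (SE 0.127). Cry1, with a difference of -0.05 (SE 0.219), overlapped, and Bhlhe41 was below the filter.

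**Figure D2:**
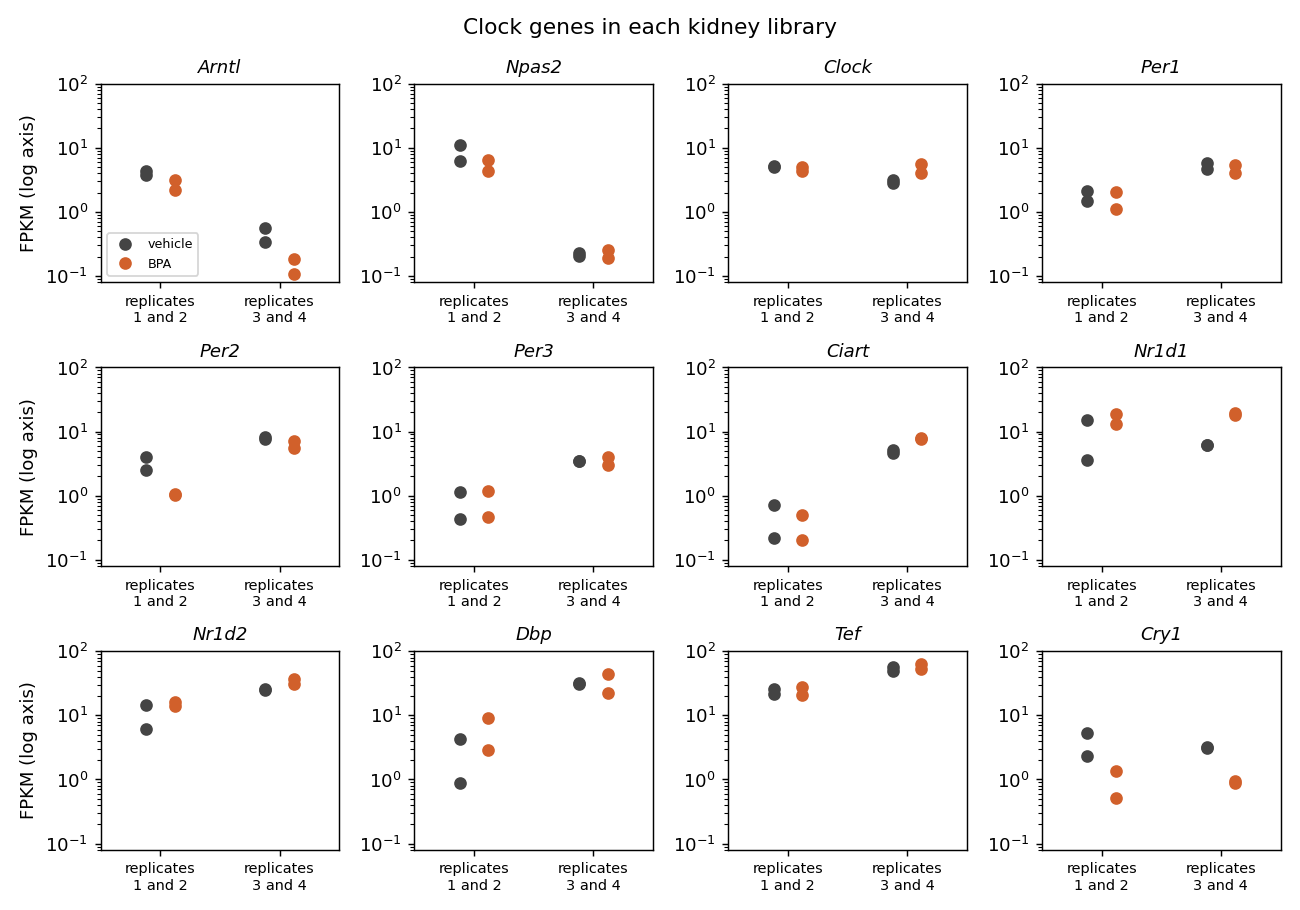
FPKM (log axis) of 12 clock genes in each of the 8 libraries, with replicates 1 and 2 on the left and 3 and 4 on the right of each panel, vehicle in grey and BPA in orange, 1 point per library. Arntl and Npas2 are lower and Per1, Per2, Per3, Ciart, Nr1d2, Dbp and Tef higher in replicates 3 and 4, while Clock, Nr1d1 and Cry1 overlap between sets in at least 1 treatment.

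The D-box activators Dbp and Tef were both higher in replicates 3 and 4. Dbp (chromosome 7, 45705088 to 45710203) was at 0.876 and 4.34 FPKM in vehicle replicates 1 and 2 and at 31.6 and 30.7 FPKM in vehicle replicates 3 and 4. In BPA, Dbp was at 2.93 and 9.02 FPKM in replicates 1 and 2 and at 44.2 and 22.4 FPKM in replicates 3 and 4. Its fitted difference of 2.86 (SE 0.446) was the largest of the 23 higher genes, and the sets did not overlap although each pair of replicates 1 and 2 differed by several fold. Tef was at 21.9 and 26.2 FPKM in vehicle replicates 1 and 2 and at 49.4 and 57.3 FPKM in replicates 3 and 4, and in BPA at 20.5 and 27.8 FPKM against 63.3 and 53.0 FPKM, a difference of 1.18 (SE 0.134). Hlf lay apart in both treatments with a smaller difference of 0.49 (SE 0.109). Nfil3, the repressor at the same motif, had a difference of -0.50 (SE 0.341), with vehicle replicate 1 at 11.5 FPKM and the other 7 libraries at 1.28 to 5.63 FPKM.

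Among 27 tested genes described as clock outputs in kidney, 15 were higher and 12 lower in replicates 3 and 4, with a median of 0.07, and 4 met the rule. Usp2, a deubiquitinase that acts on clock proteins and whose transcript cycles in many tissues, was at 17.1 and 19.8 FPKM in vehicle replicates 1 and 2 and at 45.6 and 51.1 FPKM in replicates 3 and 4. In BPA, Usp2 was at 15.3 and 15.5 FPKM against 43.0 and 61.5 FPKM, and the fitted difference was 1.51 (SE 0.141). Wee1, a kinase that delays entry into mitosis and an E-box target, was at 3.18 ± 0.381 FPKM in replicates 1 and 2 and at 8.46 ± 1.02 FPKM in replicates 3 and 4 (SD, n = 4 libraries per set, both treatments). The unclassified transcript Gm45819, which ends shortly before the start of Wee1 on the same strand of chromosome 7 (110119990 to 110121740, against a Wee1 start at 110122046), went from 0.796 ± 0.257 to 4.10 ± 0.988 FPKM.

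The other 2 of these 4 output genes were lower in replicates 3 and 4. Avpr1a, the V1a vasopressin receptor, was at 4.17 and 4.51 FPKM in vehicle replicates 1 and 2 and at 1.04 FPKM in both of replicates 3 and 4, and in BPA at 3.91 and 3.53 FPKM against 1.08 and 1.63 FPKM. The fitted difference was -1.20 (SE 0.126). Dtx4, an E3 ubiquitin ligase of the Deltex family, was at 4.87 ± 1.11 FPKM in replicates 1 and 2 and at 1.27 ± 0.827 FPKM in replicates 3 and 4. The 19 kinases and turnover factors of the clock had 10 higher and 9 lower genes, with a median of 0.05, and Usp2 alone met the rule.

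The other named genes that were higher in replicates 3 and 4 included enzymes of metabolism. Upp2, a uridine phosphorylase, was at 2.20 ± 0.438 FPKM in replicates 1 and 2 and at 5.47 ± 0.948 FPKM in replicates 3 and 4. Cyp2a5, a cytochrome P450, was at 43.8 ± 8.81 FPKM in replicates 1 and 2 and at 108 ± 29.2 FPKM in replicates 3 and 4, and Car14, a membrane carbonic anhydrase of the nephron, at 22.7 ± 2.39 and 49.7 ± 11.8 FPKM. Tmem86a, a lysoplasmalogenase of the membrane, was at 23.2 ± 1.57 FPKM against 52.9 ± 12.04 FPKM. In these 4 genes all libraries of replicates 3 and 4 were above all of replicates 1 and 2.

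Nipal2, a predicted magnesium transporter, ranged from 0.404 to 0.522 FPKM in 3 libraries of replicates 1 and 2 and from 4.23 to 5.49 FPKM in replicates 3 and 4, while vehicle replicate 1 was at 4.05 FPKM. Angptl7, a secreted angiopoietin-like protein, overlapped between the sets across treatments, since BPA replicate 4 was at 108.9 FPKM and vehicle replicate 1 at 195.3 FPKM, although within each treatment the sets were apart. The mitochondrial tRNA gene mt-Tw, of 67 bases and counted by 24 reads in replicates 1 and 2 and 70 in replicates 3 and 4, was at 0, 0.835, 4.82 and 1.72 FPKM in vehicle replicates 1 to 4 and at 14.6, 5.30, 20.2 and 37.0 FPKM in BPA replicates 1 to 4. Reads from mitochondrial genes made up 7.02% to 9.85% of the reads in replicates 1 and 2 and 7.11% to 14.2% in replicates 3 and 4, and their part in this result was not tested.

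Pseudogenes and predicted transcripts accounted for the rest of the higher group. Of the 23 higher genes 6 were pseudogenes (26.1%), against 6.35% of the genes tested, namely Gm21321, Gm45855, Alms1-ps2, Gm12191, Gm10923 and Hmgn2-ps1. Gm21321 (chromosome 10, 7384111 to 7390783) was listed at 0 in vehicle replicates 1 and 2, at 0.129 and 0.133 FPKM in the same BPA replicates, and from 4.54 to 6.24 FPKM in replicates 3 and 4, from 2 reads against 159. Alms1-ps2 was at 1.05 ± 0.300 FPKM in replicates 1 and 2 and at 4.29 ± 0.906 FPKM in replicates 3 and 4. Gm45855 rested on 6 reads against 336, and Gm10923 on 35 against 111. In vehicle the difference of Gm45855 came from replicate 4, at 12.5 FPKM. Vehicle replicate 3 was at 0.294 FPKM, little above the 0.186 and 0.127 FPKM of vehicle replicates 1 and 2. How reads with several matches were handled is not given in the sources used here, so reads of such genes and of their parent genes may not be told apart, and these values are uncertain.

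Markers of blood vessel lining ran lower in replicates 3 and 4 in both treatments. All 8 tested endothelial markers had a negative difference, 6 lay apart in both treatments, and 2 of them, Plvap and Emcn, met the rule, with a median of -0.86 over the 8, beside -0.00 over all genes tested. Their summed level was 60.4 to 79.5 FPKM in replicates 1 and 2 and 18.9 to 43.1 FPKM in replicates 3 and 4, without overlap, and none of the 8 was at 0 in every library. The median was -1.12 in vehicle and -0.59 in BPA. In bulk tissue, fewer endothelial cells and less RNA of these genes per cell cannot be told apart.

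Plvap, a protein of endothelial fenestrae and caveolae, was at 29.7 and 35.4 FPKM in vehicle replicates 1 and 2 and at 10.7 and 6.67 FPKM in replicates 3 and 4. In BPA, Plvap was at 30.4 and 37.6 FPKM in replicates 1 and 2 and at 14.9 and 15.2 FPKM in replicates 3 and 4. The sets were apart over all 8 libraries, with a fitted difference of -1.47 (SE 0.196). Emcn, an endothelial sialomucin, was at 6.07 and 6.52 FPKM in vehicle replicates 1 and 2 and at 1.74 and 1.78 FPKM in replicates 3 and 4, and in BPA at 7.37 and 9.34 FPKM against 3.26 and 4.03 FPKM, a difference of -1.20 (SE 0.126). Kdr, the main receptor of vascular endothelial growth factor, ranged from 5.22 to 6.58 FPKM in replicates 1 and 2 and from 1.07 to 3.85 FPKM in replicates 3 and 4. It missed the minimum in BPA, where its difference was -0.80, against -1.52 in vehicle.

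Esm1, a proteoglycan secreted by endothelial tip cells, was at 9.45 and 7.10 FPKM in vehicle replicates 1 and 2 and at 1.39 and 2.03 FPKM in replicates 3 and 4, and in BPA at 12.1 and 14.2 FPKM against 3.49 and 1.67 FPKM. The fitted difference was -1.90 (SE 0.188), and the sets did not overlap. Igfbp3, a binding protein of insulin-like growth factors, was at 84.6 ± 22.4 FPKM in replicates 1 and 2 and at 35.0 ± 13.0 FPKM in replicates 3 and 4. Sox18, a transcription factor of vessels, was at 6.83 ± 1.16 FPKM against 2.45 ± 0.705 FPKM, and Spry1, an inhibitor of growth factor signalling, at 5.53 ± 0.791 FPKM against 1.72 ± 0.706 FPKM. A list of 22 tested endothelial factors and secreted or surface proteins, assembled after values had been seen and so no support for the direction, held 22 lower genes with a median of -0.52. Esm1, Igfbp3 and Sox18 were the 3 of them that met the rule.

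Of the other cell type markers, stromal and inner medulla sums also divided the replicate sets. Stromal markers summed to 41.2 to 43.8 FPKM in replicates 1 and 2 and 23.0 to 34.7 FPKM in replicates 3 and 4, without overlap, with 8 of 9 genes lower and 4 apart in both treatments, none meeting the rule. Inner medulla markers summed to 26.0 to 29.0 FPKM in replicates 1 and 2 and 29.8 to 36.5 FPKM in replicates 3 and 4, where they were higher, also without overlap. Podocyte markers, from the filter cells of the glomerulus, had a median of -0.75 in vehicle and 0.03 in BPA. Macrophage markers were lower in all 8 tested genes, with a median of -0.34, although vehicle replicate 4 had the highest sum, 120.6 FPKM. Red blood cell markers overlapped between sets at 488.3 to 991.1 and 247.5 to 966.7 FPKM. The part of cell type proportions in the differences of single genes was not tested.

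**Figure D3:**
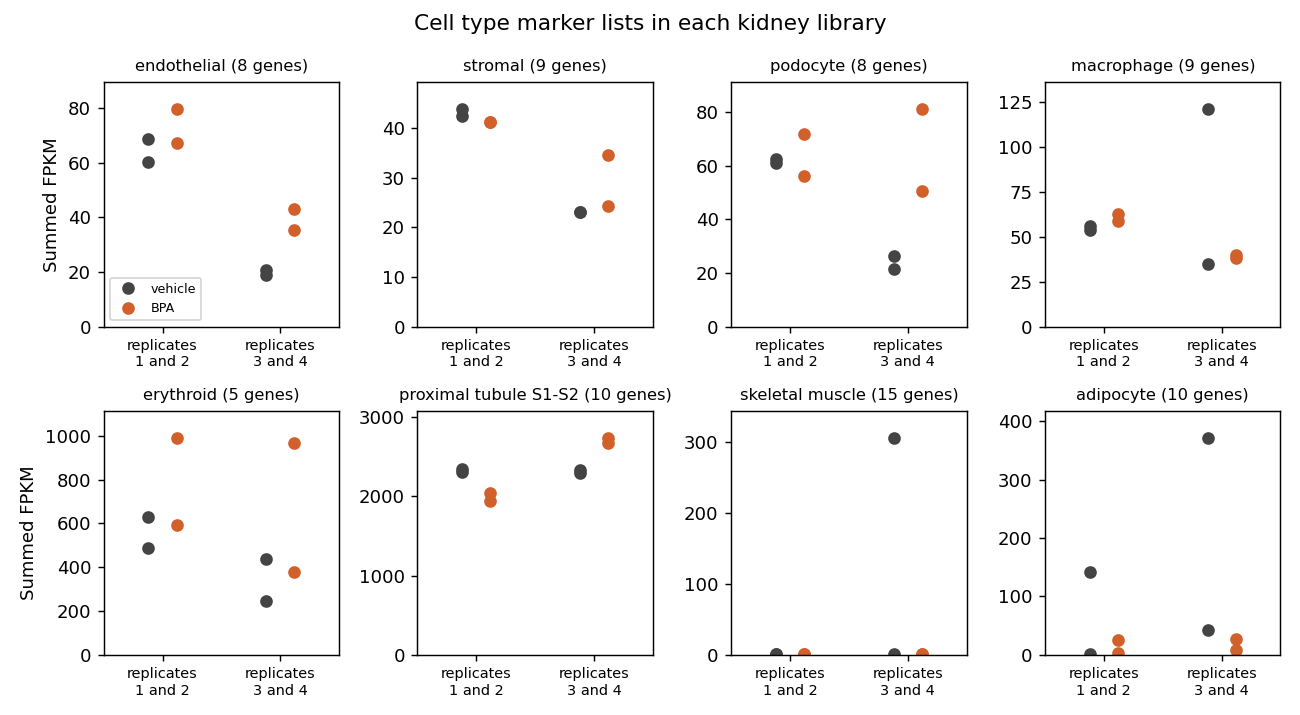
Summed FPKM of 8 lists of cell type markers (y axes from 0, separate for each panel) in each library, with replicates 1 and 2 on the left and 3 and 4 on the right, vehicle in grey and BPA in orange, 1 point per library. Endothelial sums of 60.4 to 79.5 FPKM in replicates 1 and 2 lie above the 18.9 to 43.1 FPKM of replicates 3 and 4, and skeletal muscle markers are at 306.5 FPKM in vehicle replicate 4.

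Among the remaining lower genes were several of epithelial transport and metabolism. Ndrg1, a stress-responsive gene known to be induced by hypoxia, was at 497.8 and 502.8 FPKM in vehicle replicates 1 and 2 and at 156.3 and 215.0 FPKM in replicates 3 and 4. In BPA, Ndrg1 was at 506.0 and 334.8 FPKM against 133.3 and 126.9 FPKM, and the fitted difference was -1.55 (SE 0.169). With 214621 reads in replicates 1 and 2 against 68726 in replicates 3 and 4, it was the most deeply counted of the 57 genes. A hypoxia list, added after values had been seen, was mixed: of 19 tested genes, Ndrg1 included, 9 were higher and 10 lower, the median was -0.02, and Ndrg1 alone met the rule.

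Ppard, the fatty acid receptor PPAR delta, was at 14.6 and 6.19 FPKM in vehicle replicates 1 and 2 and at 1.83 and 1.39 FPKM in replicates 3 and 4, and in BPA at 11.1 and 7.12 FPKM against 2.20 and 2.31 FPKM, a difference of -1.82 (SE 0.255). Slc10a2, the sodium-dependent bile acid transporter, was at 33.1 ± 4.95 FPKM in replicates 1 and 2 and at 11.3 ± 3.38 FPKM in replicates 3 and 4. Slc16a1, the lactate transporter MCT1 and the only lower gene with an E-box in its window, was at 18.9 ± 3.27 FPKM against 6.69 ± 1.22 FPKM. In all 3 genes the sets were apart over all 8 libraries. Genes of fatty acid oxidation and fasting, a class that PPAR receptors regulate, had 12 higher and 11 lower members of 23, with a median of 0.08, and none met the rule.

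Palm3, a paralemmin, and the transcript 2210011C24Rik are neighbours on chromosome 8 (Palm3 from 84021471 to 84030295, 2210011C24Rik from 84010222 to 84012171) and both were lower in replicates 3 and 4. Palm3 was at 5.68 ± 2.11 FPKM against 1.08 ± 0.797 FPKM, and 2210011C24Rik at 26.3 ± 9.56 against 9.50 ± 3.39 FPKM. Ypel2, of the yippee-like family, was at 7.19 ± 4.18 FPKM against 1.76 ± 0.939 FPKM. Plpp1, a lipid phosphate phosphatase, was at 7.60 ± 1.88 FPKM against 2.33 ± 1.08 FPKM, and Ecm1, an extracellular matrix protein, at 20.3 ± 4.91 against 7.67 ± 2.38 FPKM. In these 5 genes, too, all 8 libraries were divided.

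Foxs1, a forkhead factor, was at 0 in vehicle replicate 3 and BPA replicate 4 and at 0.967 to 2.17 FPKM in replicates 1 and 2. Rasl11a, Marcks and Arhgef19, genes of small GTPase or membrane signalling, were apart over all 8 libraries, at fitted differences of -1.34, -1.06 and -1.18. Cyr61, a matricellular protein and target of the YAP coactivator, the gamma-glutamyltransferase gene Ggt6, Nccrp1 and the neutrophil gene S100a9 were apart within each treatment but overlapped across treatments. S100a9, for example, was at 6.28 and 4.07 FPKM in vehicle replicates 1 and 2 and at 0.908 to 2.54 FPKM in the same BPA replicates, beside 2.76 FPKM in vehicle replicate 4. The long noncoding transcript 5730437C11Rik rested on 40 reads against 4, and overlapped in the same way.

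Immunoglobulin segments made up 4 of the 34 lower genes (11.8%), against 0.979% of the genes tested. They were Ighj3, Igkv1-117, Ighv6-6 and Igkv14-100. Ighj3, a joining segment of 48 bases, ranged from 1.201 to 3.70 FPKM in replicates 1 and 2, from 9 reads, and was listed at 0 in all of replicates 3 and 4. Over 130 tested segments, a list added after values had been seen, 97 were lower and 33 higher, with a median of -0.41, which was -0.12 in vehicle and -0.66 in BPA. Summed markers of T and B cells overlapped between sets and were highest in vehicle replicate 4, at 63.4 FPKM against 8.18 to 17.2 FPKM elsewhere. The 2 remaining lower genes were the pseudogenes Gm8399, at 42.1 to 123.0 FPKM in replicates 1 and 2 and 1.43 to 34.6 FPKM in replicates 3 and 4, and Cyp4b1-ps2, with 389 reads against 36.

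**Figure D4:**
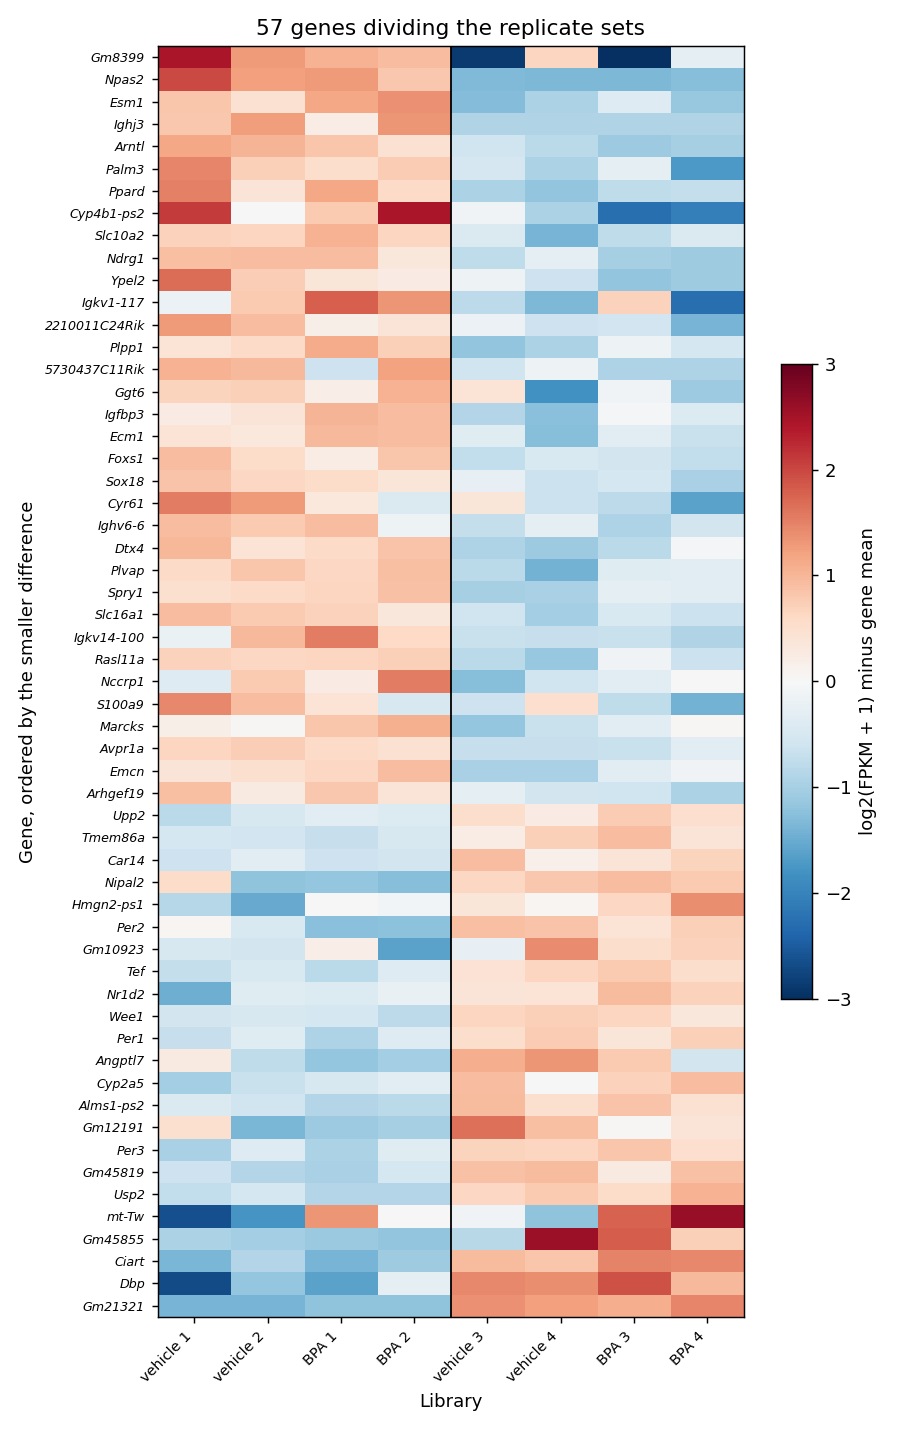
Log2(FPKM + 1) minus the mean of the gene, in each library (columns, replicates 1 and 2 left of the line) for the 57 genes (rows, lower genes above, higher genes below). Colours run from -3 (blue) to 3 (red). The genes change colour at the line, and 10 of the 57 overlap across treatments, among them Angptl7, mt-Tw and S100a9.

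Signalling and stress lists showed smaller differences. Of 22 glucocorticoid-responsive genes 12 were higher and 10 lower, with a median of 0.19 (0.25 in vehicle and -0.03 in BPA), and Per1 alone met the rule. The median was -0.01 without vehicle replicate 2. Tsc22d3, a glucocorticoid-induced leucine zipper protein, was at 9.06 and 7.71 FPKM in vehicle replicates 1 and 2 and at 23.8 and 21.1 FPKM in replicates 3 and 4, but at 4.66 and 6.34 against 9.10 and 6.998 FPKM in BPA, where its difference of 0.48 missed the minimum. Immediate early genes had 7 higher and 18 lower of 25 (median -0.17), heat shock genes 7 and 13 of 20 (median -0.24), and the unfolded protein response 10 and 18 of 28 (median -0.14). None of these 3 lists held a gene that met the rule. Renal glucose handling had 11 higher and 5 lower of 16, with a median of 0.18. In that list Pck1, the first committed enzyme of gluconeogenesis, was at 676.2 and 614.1 FPKM in vehicle replicates 1 and 2 and at 1511 and 1104 FPKM in replicates 3 and 4, and in BPA at 374.9 and 466.6 against 703.8 and 724.0 FPKM. It lay apart in both treatments, short of the minimum in BPA, where its difference was 0.77.

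The BPA contrast, which was not used to choose the split, was tested with the replicate set as a term, by limma with Benjamini-Hochberg adjustment over all 13376 genes. It called 2 genes (0.015%), 1 higher (0.00748%) and 1 lower (0.00748%) in BPA, and neither met the rule for dividing the sets. The higher one, mt-Tn, lay apart between sets in both treatments but below the minimum, with differences of 0.58 in vehicle and 0.87 in BPA. mt-Tn, a mitochondrial tRNA gene, was at 58.4, 52.8, 91.9 and 75.4 FPKM in vehicle replicates 1 to 4 and at 136.4, 125.9, 252.6 and 229.3 FPKM in BPA replicates 1 to 4. All BPA libraries were above all vehicle libraries, and limma gave a change of 1.37 (SE 0.121, adjusted p = 0.0286), with 1.22 in replicates 1 and 2 alone and 1.52 in replicates 3 and 4 alone. Gm8430, a processed pseudogene, ranged from 13.4 to 15.8 FPKM in vehicle and from 5.91 to 6.55 FPKM in BPA. The limma change was -1.13 (SE 0.0875, adjusted p = 0.0208), with -1.14 in replicates 1 and 2 alone and -1.13 in replicates 3 and 4 alone. Reads from mitochondrial genes made up 7.02% to 8.33% of the reads in vehicle and 9.66% to 14.2% in BPA, without overlap, and 12 of the 15 large mitochondrial transcripts had a positive BPA coefficient (median 0.54). Levels also moved with GC content by treatment: the Spearman correlation across genes of a library's deviation from the mean with GC content was 0.13 to 0.25 in vehicle and -0.29 to -0.05 in BPA. With a correction for GC content, limma kept the call of Gm8430 (adjusted p = 0.0142) and lost that of mt-Tn (1.10, adjusted p = 0.110). Without the term for replicate set it likewise kept Gm8430 (adjusted p = 0.00745) and lost mt-Tn (adjusted p = 0.271). With the replicate number as a block limma called neither gene (adjusted p = 0.196 for each), nor did limma-voom on recovered reads (adjusted p = 0.0755 for mt-Tn and 0.107 for Gm8430). The limma call of mt-Tn was lost whichever single library was left out (adjusted p from 0.05004 to 0.139). That of Gm8430 was lost without vehicle replicates 1, 3 or 4 or BPA replicates 1, 2 or 3 (adjusted p from 0.0556 to 0.139). Without both replicates 4 limma called neither gene (adjusted p = 0.0878 for each).

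Among genes that did not pass, Aldh1a1, a retinaldehyde dehydrogenase, had the largest coefficient of those named by smallest p after mt-Tw, 2.04 (SE 0.300, limma adjusted p = 0.163). It was at 0.343 to 0.838 FPKM in vehicle, and in BPA at 8.28 and 10.03 FPKM in replicates 1 and 2 against 2.71 and 4.83 FPKM in replicates 3 and 4. Amn, the amnionless partner of cubilin in the proximal tubule, was at 135.4 to 151.2 FPKM in vehicle and 73.0 to 87.4 FPKM in BPA, without overlap, and its coefficient of -0.83 had a limma adjusted p of 0.140.

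None of the 57 genes passed the test for BPA. In limma 15 of them had an unadjusted p under 0.05, beside 1796 of all genes tested (13.4%), and the smallest adjusted p was 0.140, that of mt-Tw. Of the 57 genes 29 had a positive and 28 a negative BPA coefficient, with a median of 0.01. Among the clock genes Cry1 was at 5.28, 2.33, 3.15 and 3.24 FPKM in vehicle replicates 1 to 4 and 1.35, 0.514, 0.956 and 0.888 FPKM in BPA replicates 1 to 4. The treatments did not overlap, but the coefficient of -1.20 (SE 0.219) had a limma adjusted p of 0.209 and did not pass, with -1.28 in replicates 1 and 2 alone and -1.13 in replicates 3 and 4 alone. The coefficients of Nr1d1 (1.205, limma adjusted p = 0.286), Nfil3 (-1.07, adjusted p = 0.300) and Per2 (-0.68, adjusted p = 0.276) did not pass either. Arntl had a coefficient of -0.39 (SE 0.124, limma adjusted p = 0.297) and Dbp one of 0.50 (SE 0.446, limma adjusted p = 0.614).

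Whether the difference between sets itself differed between the treatments was tested as an interaction. No gene passed in limma (0%), with 1374 genes (10.3%) at an unadjusted p under 0.05 and a smallest adjusted p of 0.258, and limma-voom on the recovered reads also called 0. With 2 libraries per treatment and set, leaving 1 out leaves no replicate there. Interaction counts from such fits changed with the library left out and are not given. Slc34a3, a phosphate transporter of the proximal tubule, was at 12.02 and 13.03 FPKM in vehicle replicates 1 and 2 and at 4.11 and 3.86 FPKM in vehicle replicates 3 and 4, while its 4 BPA libraries were at 12.05 to 15.5 FPKM. Mogat1, an acyltransferase of triglyceride synthesis, was at 50.1 and 58.4 FPKM in vehicle replicates 1 and 2 against 99.6 and 105.8 FPKM in replicates 3 and 4, and in BPA at 104.5 and 105.0 FPKM against 54.8 and 55.5 FPKM. Both are among the genes with the smallest interaction p in their direction, and neither passed. For the 57 genes, which had to differ the same way in both treatments, 1 had an unadjusted p under 0.05, which is a description. As a description too, limma with treatment as a covariate called 93 genes (0.695%) for replicate set, 36 higher (0.269%) and 57 lower (0.426%), and 38 of the 57 genes were among them. Left out singly, vehicle replicates 1, 2, 3 and 4 changed that count to 7, 4, 32 and 5, and BPA replicates 1, 2, 3 and 4 to 11, 5, 14 and 222.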

How the data were processed

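The authors made the deposited FPKM per gene from reads. The submitters' processing notes name DESeq2 1.20.0 and GRCm38, but no aligner or counter is given in the sources used here. Columns named for BPA were matched by name, and the C columns were taken as vehicle, the other group. Low FPKM values (up to 20 steps) were whole multiples of 1 read, within 0.01 reads, in 100% of cases, so whole reads were recovered.

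The members and gene lists were chosen with earlier results of these data known. Replicate sets, BPA and their interaction were fitted on log2(FPKM + 1) with limma 3.58.1 (R 4.3.3), using trended, robust empirical Bayes variance and Benjamini-Hochberg adjustment (threshold 0.05). This scale understates the change of low genes. Named genes were those of 3 clock lists, the 12 members per direction with the largest smaller difference, up to 4 members per list, the 5 smallest p-values per direction for BPA and interaction, and the 3 genes on each side of the minimum. The remaining members were named to account for each. Some genes that this rule names are left out of the text. No 2 libraries of the same treatment were duplicates (chi-square of reads per gene 15.5 to 100.2). The fit was run on simulated counts that held no deviating library, unlike these data, so that run cannot show how often it errs here. Python 3.11.15, numpy 2.4.6 and pandas 2.3.3 were also used. Alternatives were other pseudocounts, filters, scalings, a GC correction, library weights, limma-voom, leaving out libraries and a replicate block.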

Additional observations from a re-analysis of the deposited data

Results flagged for a closer look

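In 11 of 164 groups of 4 libraries examined, 1 library lay far from the other 3 by a gap test that chance alone passes in about 1 in 20 groups. Vehicle replicate 1 stood apart within replicates 1 and 2 for Gm8399 (123.0 FPKM, against 42.1 to 54.1 FPKM), Nipal2 (4.05 against 0.404 to 0.522 FPKM), Gm12191 (65.4 against 17.4 to 22.8 FPKM) and Nfil3 (11.5 against 2.92 to 3.84 FPKM). Within the same replicates BPA replicate 1 stood apart for Slc10a2 (40.5 against 30.4 to 31.1 FPKM), BPA replicate 2 for Ndrg1 (334.8 against 497.8 to 506.0 FPKM) and vehicle replicate 2 for Cry2 (3.29 against 2.07 to 2.20 FPKM). Within replicates 3 and 4, BPA replicate 4 stood apart for Igkv14-100 (0 against 0.163 to 0.183 FPKM) and Avpr1a (1.63 against 1.04 to 1.08 FPKM), and BPA replicate 3 for Gm45819 (2.63 against 4.46 to 4.77 FPKM). Within BPA, replicate 4 was lowest for Zfp771 (8.86 against 11.6 to 12.1 FPKM). Among these 11 only Zfp771 and the clock genes Nfil3 and Cry2 did not meet the rule for dividing the replicate sets.

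For 11 genes named for BPA or the interaction, the replicate sets lay apart in opposite directions in the 2 treatments. The difference between sets in BPA minus that in vehicle, on the log2(FPKM + 1) scale, was 0.31 for Amn, 1.14 for Arhgef12, 0.95 for Huwe1, 1.01 for Wdfy3 and 0.84 for Syne2. It was -1.83 for Mogat1, -1.20 for Mfsd4b3, -1.69 for Slc23a3, -1.39 for Aldh1a1, -3.14 for Ighg2c and -2.57 for Igkv19-93. None passed the limma interaction test, whose smallest adjusted p over all genes was 0.258. The fit without BPA replicate 3 rests on BPA replicate 4 alone for that set in BPA, so its calls are not given.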

How the results depend on the processing

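In the 17 settings that gave differences, each of the 57 genes that passed the setting's filter kept its direction. The rule itself fixes this where libraries are left out or the pseudocount or filter changes. The other settings rescale the same values that chose the genes, so the kept direction is no support in any setting. The counts of 23 higher and 34 lower genes moved to 41 and 102 with a pseudocount of 0.1, 7 and 5 with 5, 12 and 16 at a mean of 5 FPKM or more, 36 and 167 with limma-voom (where the median of all genes was -0.10), 121 and 204 at a minimum of 0.5, and 964 and 860 with none. Requiring a limma call too left 15 higher genes, and without both replicates 4 there were 40. With single libraries left out, higher genes ran from 21 to 39 (without BPA replicate 4) and lower genes from 32 to 60 (without vehicle replicate 3). The 93 limma calls for replicate set became 7 with no filter, 51 without the treatment covariate, 331 with library weights, 174 with limma-voom and 4 to 222 with single libraries left out. The 2 BPA calls became 0 with no filter (2179 genes at an unadjusted p under 0.05), 4 at 5 FPKM or more, 1 with the GC correction, 1 without both replicates 4, 1 without the set term, 29 with library weights, 0 with limma-voom (1890 unadjusted) and 0 to 2 with single libraries left out. The 1 call without both replicates 4 was neither mt-Tn nor Gm8430 (limma adjusted p = 0.0878 for each). BPA calls became 0 without vehicle replicates 1, 3 or 4 or BPA replicates 1, 2 or 3. The interaction count of 0 became 2 without both replicates 4 and 0 to 758 with single libraries left out. The cause was not tested.

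Same-numbered vehicle and BPA libraries deviated from their group means with correlations of 0.14, 0.02, 0.14 and -0.03. Differently numbered ones had correlations of -0.22 to 0.19. The labels do not say what a number stands for, so these values cannot decide whether the numbers pair the libraries. With the replicate number as a fixed term in place of the set term, limma gave 0 calls for BPA (1376 unadjusted). Separate fits took the replicate number as a random block and gave no BPA result. They called 277 genes for replicate set and 0 for the interaction (1271 unadjusted). The correlation within blocks was estimated at -0.048 in the interaction fit. Depth limits genes with few reads: Ighj3 rests on 9 reads, and mt-Tw on 24 in replicates 1 and 2 and 70 in replicates 3 and 4.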

Other observations

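Cholesterol synthesis had 7 higher and 16 lower of 23 tested genes, with a median of -0.17, and interferon-stimulated genes 4 higher and 16 lower of 20, with a median of -0.14. NRF2 and glutathione genes, which answer oxidative stress, had 5 higher and 14 lower of 19, with a median of -0.11. Amino acid transporters had 8 higher and 7 lower of 15 (median 0.04), cell cycle genes 3 higher and 7 lower of 10 (median -0.08), and the 4 cold-inducible RNA-binding genes 3 higher and 1 lower (median 0.12). The 15 large transcripts of the mitochondrial genome had 10 higher and 5 lower genes, with a median of 0.04 in vehicle and 0.33 in BPA. None of these lists held a gene that met the rule.

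Nephron segments were mixed in direction, and several differed between the treatments. Markers of the first segments of the proximal tubule had 8 higher and 2 lower of 10 genes, with a median of -0.06 in vehicle and 0.49 in BPA, and those of its last segment 4 higher and 4 lower of 8. Markers of the thick ascending limb had 2 higher and 5 lower of 7, with a median of -0.50, and vehicle replicate 4 had their lowest sum, 260.5 FPKM, against 495.0 to 848.4 FPKM elsewhere. Markers of the distal convoluted tubule had 5 higher and 1 lower of 6 (median 0.19, with -0.13 in vehicle and 0.41 in BPA). Those of principal cells had 3 and 4 of 7 (median -0.03, with 0.10 and -0.24). Intercalated cell markers had 3 and 4 of 7 (median -0.01, with -0.07 and 0.28). Inner medulla markers had 2 and 1 of 3 (median 0.31, with 0.11 and 0.07). No distal convoluted tubule, intercalated cell or inner medulla marker lay apart in the same direction in both treatments. Fat markers had 8 higher and 1 lower of 9, and skeletal muscle markers 10 higher of 10, both with their highest sum in vehicle replicate 4. Of markers of tissues other than kidney, 3 of 8 hepatocyte genes, 1 of 8 pancreatic acinar genes and none of the 7 urothelial or 6 adrenal cortex genes passed the filter on low values.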
